A study of Mus musculus with 4 samples.

Results

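The genes described here are the matrix metalloproteinases (Mmp), the ADAMTS proteases and the tissue inhibitors of metalloproteinases (Timp) of the developing mouse nose. They were taken by symbol from the deposited gene list and number 44 of 32285 features, with 21 Mmp, 19 Adamts and 4 Timp genes. No measured value entered that choice. Droplet single-cell RNA sequencing was done on whole noses at embryonic day 14.5, in 2 control and 2 mutant libraries. The study asks what loss of the coactivators YAP and TAZ in the Sox10-expressing neural crest lineage does to the olfactory system. Mutants carried the Sox10-cre transgene, 1 floxed and 1 wild-type Yap allele and floxed Taz on both chromosomes, per the series design. For the controls the sources differ: the sample labels name the strain C57Bl/6J, and the series design names mice with both Yap and both Taz alleles floxed and no Cre, so the 2 groups may or may not share the floxed alleles. The protocol speaks of 2 noses per genotype, and nothing says whether the libraries came from separate litters, so p-values measure the spread between these libraries. Cre acts in Sox10-expressing cells and their descendants, while every other cell of the nose was sequenced with them.

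Mmp and Adamts genes encode zinc-dependent proteases that cut collagens, proteoglycans and other matrix proteins. Some Mmp proteins are secreted and others are held at the cell surface. The Adamts proteins carry thrombospondin repeats and include the aggrecan and versican cleaving enzymes and the enzymes that trim the amino-terminal propeptide of procollagens. Timp proteins bind the active site of these proteases, and Timp3 differs from its relatives in sitting bound in the matrix. YAP and TAZ act on genes through the TEAD transcription factors.

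After removal of barcodes with fewer than 500 detected genes or more than 10% mitochondrial counts, 13739 of 15863 cells remained, between 2474 and 4195 per library, with a median of 5282 to 8549 UMIs (tags that each mark 1 captured molecule). Levels are CPM, the UMIs of a gene scaled to the total UMIs of the cells summed in a class and library. The assay counts transcript ends, so a level is not divided by gene length. The targeted genes were still read in mutant libraries, with Yap1 at 65.0 and 65.2 CPM in controls against 56.4 and 56.0 in mutants, and Wwtr1, which encodes TAZ, at 118 and 145 against 123 and 132. UMIs at the end of a transcript do not check a deletion elsewhere in the gene. Xist lay between 910 and 1425 CPM in all 4 libraries and the 4 Y-linked genes at 0.172 CPM or lower. Pairs of libraries shared 4 to 8 barcodes.

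Cells were assigned to classes by the number of marker genes detected, and none of the 44 genes was a marker. Tests were run in classes where each library held 20 or more cells: mesenchyme (9508 cells), keratinocytes (706), osteoblast lineage cells (566), chondrocytes (309), cells with both epithelial marker sets (271), macrophages (249), endothelial cells (202), mural cells (168) and glia (113). Smaller classes, among them 311 nasal epithelial, 79 olfactory neuronal and 78 skeletal muscle cells, are shown by level only, and 831 cells passed no gate.

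Of the 44 genes, 30 had at least 100 UMIs over all retained cells and none had 0. The largest totals were those of Mmp16 (17518 UMIs), Timp3 (17411), Timp2 (15336), Mmp14 (15034) and Adamts12 (10489). The 14 genes below 100 UMIs were Mmp1b, Mmp3, Mmp7, Mmp8, Mmp10, Mmp12, Mmp19, Mmp20, Mmp21, Mmp24, Mmp25, Mmp27, Adamts13 and Timp4, with totals from 2 (Mmp1b and Mmp7) to 92 (Mmp19). Genome position divided the Mmp genes. On chromosome 9, 8 of the 21 (Mmp12, Mmp1b, Mmp3, Mmp10, Mmp8, Mmp27, Mmp20 and Mmp7) lie within 355.2 kb, from 7344381 to 7699585 of GRCm38 in the GENCODE M21 annotation. Together those 8 genes had 77 UMIs in 13739 cells, against 49960 UMIs for the other 13 Mmp genes. The cluster holds the classical stromelysins Mmp3 and Mmp10, the matrilysin Mmp7, the macrophage elastase Mmp12 and the neutrophil collagenase Mmp8. Mmp12 and Mmp1b overlap on opposite strands, so their few reads depend on strand assignment.

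A short sequence recurred upstream of 5 of these 8 near-silent genes. The 250 bases upstream of the start in RefSeq (GRCm38.p6) were searched on both strands for TGACTCA, the site bound by AP-1 factors, and for GGAATG, the core bound by TEAD factors. Windows were found for 30 of the 44 genes, 33 windows in all. TGACTCA, read as TGAGTCA on the printed strand, was present in 5 genes, all of them in the chromosome 9 cluster, while 4.46% of all 32851 windows in the table held it. The last 100 bases before each of these starts are shown to place the motif, which is in capitals. Its first printed base lies 46 bases upstream of the start of Mmp3, 63 of Mmp10, 93 of Mmp1b, 63 of Mmp7 and 44 of Mmp12. The other listed starts of Mmp7 and Mmp12 have no match. A match is a description of letters and not a measured binding site.
Mmp3, chr9:7445722-7445821, plus strand: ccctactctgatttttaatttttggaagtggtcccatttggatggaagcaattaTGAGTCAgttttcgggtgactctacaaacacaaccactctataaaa
Mmp10, chr9:7502242-7502341, plus strand: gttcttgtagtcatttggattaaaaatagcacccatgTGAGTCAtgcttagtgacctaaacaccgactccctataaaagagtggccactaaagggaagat
Mmp7, chr9:7691990-7692089, plus strand: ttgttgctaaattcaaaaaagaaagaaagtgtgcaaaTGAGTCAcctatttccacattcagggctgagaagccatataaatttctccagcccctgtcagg
Mmp12, chr9:7347274-7347373, plus strand: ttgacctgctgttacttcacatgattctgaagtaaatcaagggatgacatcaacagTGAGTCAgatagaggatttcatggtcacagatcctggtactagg
Mmp1b, chr9:7388027-7388126, minus strand: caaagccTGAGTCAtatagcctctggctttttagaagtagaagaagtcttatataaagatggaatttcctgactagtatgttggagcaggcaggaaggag

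GGAATG was present in the windows of Adamts13 and Timp1, against 12.6% of all windows. Timp1, a secreted inhibitor on the X chromosome (20870166 to 20874735, overlapping the gene Syn1 on the opposite strand), is shown because it is the one of this pair with more than 100 UMIs. The match, in capitals, begins 247 bases upstream of the start.
Timp1, chrX:20869916-20870165, plus strand: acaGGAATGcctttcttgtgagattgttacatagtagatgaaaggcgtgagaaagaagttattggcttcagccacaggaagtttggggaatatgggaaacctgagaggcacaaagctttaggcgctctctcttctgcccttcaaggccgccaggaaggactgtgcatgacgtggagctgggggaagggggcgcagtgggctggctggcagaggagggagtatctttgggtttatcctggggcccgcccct

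Across cell classes the proteases and inhibitors were far from uniform. The contrast set each class against the mean of the log levels of the other 8 classes, in 1 edgeR quasi-likelihood fit over 11387 genes with library as a block, and 23 of the 44 genes passed its filter on low counts. Mesenchyme was higher for 17 of those 23 (32% of all genes tested were higher there), osteoblast lineage cells for 15 (22.9%), chondrocytes for 14 (21.7%) and mural cells, the contractile cells around vessels, for 14 (15.9%). Macrophages were lower for 17 (30.7% of all genes) and higher for 2 (27.5%). Keratinocytes were higher for 4 (27.3%) and lower for 9 (19.4%), endothelial cells higher for 8 (21.3%) and lower for 7 (16.4%), and glia higher for 7 (13%) and lower for 1 (8.03%). Cells with both nasal epithelial and keratinocyte markers, led by Bpifa1, Krt18 and Olfm5, were higher for 6 (24%) and lower for 10 (15.7%). Mesenchyme, chondrocytes and osteoblast lineage cells were each lower for 1 gene, Mmp15 (16.4%, 12.1% and 11.7% of all genes), and mural cells for 0 (6.07%). Because a class at 0 UMIs pulls the mean of logs down for 6 of the genes, the contrast was also run with limma on log2(CPM + 1), chosen after seeing the data. It made the same call for 119 of the 134 gene and class pairs. Genes called lower by limma numbered 6 in glia in place of 1, 3 in chondrocytes in place of 1 and 1 in mural cells in place of 0. For 9 of the 134 edgeR calls, all of them higher, the mean CPM of the class was below the mean over the other classes. Some of these, such as Mmp16 in mural cells, are of genes with UMIs in every tested class. Stricter gates took the higher genes of mural cells from 14 to 9. Without a filter on low counts all 44 genes were tested, and those higher in mesenchyme numbered 29. That count is not comparable with 17 of 23, and the share of all genes in that setting is not given. Removing the highest doublet scores took the lower genes of the doubly marked epithelial cells from 10 to 6, and without mutant 2 the lower call of Mmp14 in keratinocytes (-0.575) turned to 0.32 (adjusted p = 0.54). Leaving out mutant 1 took the lower genes of endothelial cells from 7 to 3 and those of the doubly marked epithelial cells from 10 to 6, and leaving out control 1 or control 2 took the higher genes of the latter from 6 to 3. Without mutant 1 the single lower gene of mesenchyme, of chondrocytes and of osteoblast lineage cells was lost, as it was for mesenchyme and osteoblast lineage cells without control 2. The lower gene of glia, Adamts2, was lost without control 1, control 2 or mutant 2. Of the 2 higher genes of macrophages, Mmp9 was lost without control 2 and did not pass the filter on low counts without control 1.

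**Figure D1:**
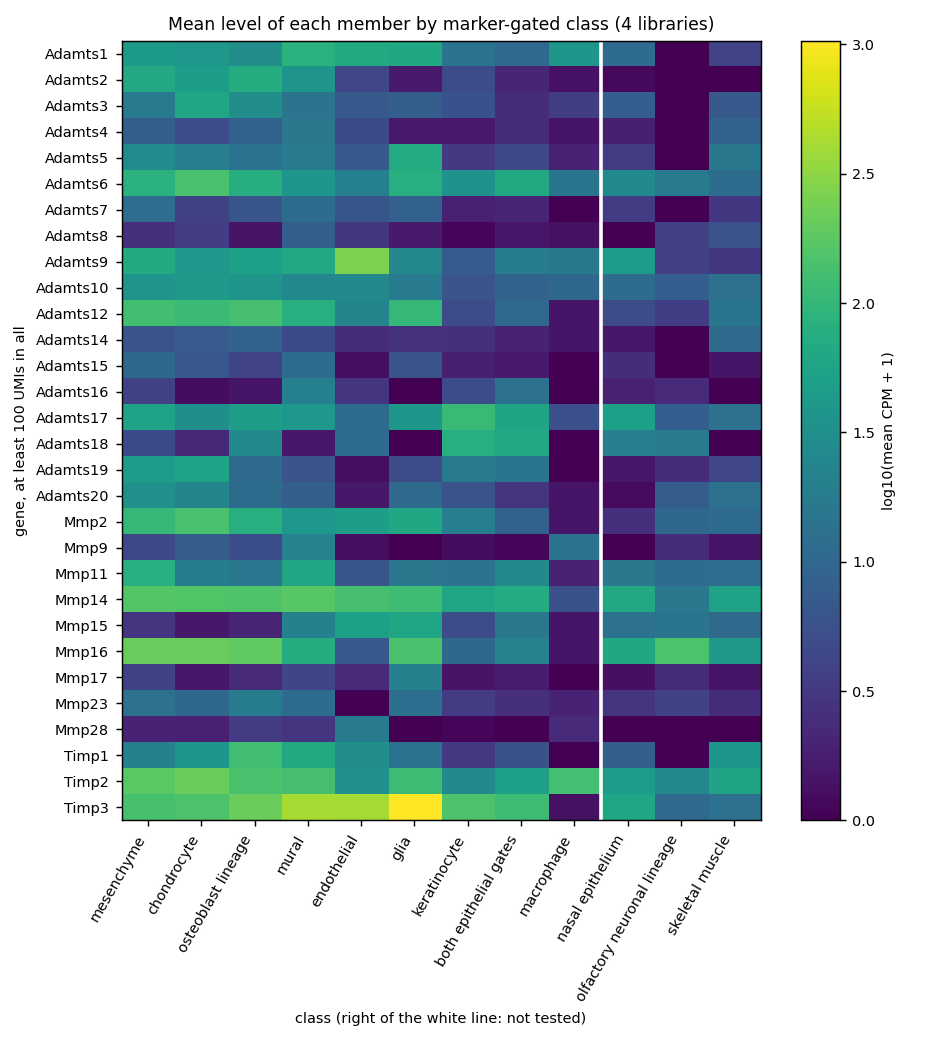
Mean level of the 30 genes with at least 100 UMIs (rows) in each class (columns), as log10(mean CPM of the 4 libraries + 1). Timp3 in glia is the brightest cell, Adamts9 stands out in endothelial cells, and Timp2 is the brightest gene of the macrophage column.

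The secreted gelatinase Mmp2, which cuts denatured collagen and basement membrane, had its highest means in the skeletal and mesenchymal classes. It measured 124, 123, 153 and 157 CPM in chondrocytes of control 1, control 2, mutant 1 and mutant 2, and 100, 92.4, 104 and 110 CPM in mesenchyme. Macrophages held 1 Mmp2 UMI in all. The contrast was 2.61 ± 0.17 (SE, log2, n = 4 libraries) in chondrocytes (edgeR adjusted p = 2.04e-15) and 2.12 ± 0.14 in mesenchyme (9.14e-16). Osteoblast lineage cells (76.2 CPM, 1.73 ± 0.17), glia (63.0 CPM, 1.17 ± 0.29) and endothelial cells (48.5 CPM, 0.93 ± 0.23) were also called higher. The glial call was lost without control 2. The endothelial mean was below the mean of 55.7 CPM over the other classes.

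Mmp9, the other gelatinase, was sparse, with 514 UMIs. Of these, 100 were in 2 of the 3 cells with osteoclast markers, all in control 1, and osteoclasts are a known source of this enzyme. In mural cells Mmp9 measured 40.5, 2.93, 26.1 and 13.2 CPM, and was higher than in the other classes (4.33 ± 0.74, adjusted p = 2.15e-05), though it did not pass the filter on low counts without control 1, with stricter gates or with the highest doublet scores removed. In macrophages it measured 1.44, 48.9, 1.96 and 0 CPM, from 28 UMIs in 5 of 249 cells. The 7 neutrophil markers summed to 671, 1643, 37.3 and 80.8 CPM in the macrophages of the same libraries, with Ngp, Camp and Elane at 0, and their part in the Mmp9 level was not tested. The higher call of Mmp9 in macrophages (3.51 ± 0.83) was lost without control 2, where the log2 difference was 0.19 (adjusted p = 0.866). Mmp8, below 100 UMIs and named after its values were seen, had 11 of its 15 UMIs in macrophages.

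Mmp11, a secreted enzyme activated inside the cell by furin, was highest in mesenchyme, at 60.9, 65.1, 80.7 and 102 CPM. Mural cells followed with 45.8, 32.2, 102 and 61.4 CPM. Macrophages had 2 UMIs. The contrast for mesenchyme was 2.68 ± 0.15 (adjusted p = 1.37e-17). Mmp28 (epilysin) measured 9.63, 24.6, 22.2 and 12.1 CPM in endothelial cells, and its mean in every other tested class was 2.45 CPM or lower. It did not pass the filter of the class contrast. Mmp25, also below 100 UMIs and named after its values were seen, had 23 of 85 UMIs in endothelial cells.

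Membrane-bound Mmp genes took different classes. Mmp14, the membrane-type protease that activates Mmp2, was spread over mesenchyme (161, 155, 150 and 179 CPM), mural cells, chondrocytes, osteoblast lineage cells and endothelial cells, whose means ran from 133 to 168 CPM. Macrophages had 11 Mmp14 UMIs, all from mutant 2, with 0, 0, 0 and 18.5 CPM. Mmp16, a close relative of Mmp14, was more restricted. It measured 191, 221, 200 and 216 CPM in mesenchyme and similar means of 204 and 190 CPM in chondrocytes and osteoblast lineage cells, whose library values overlap those of mesenchyme. In endothelial cells Mmp16 was at 5.82 CPM, and 1 UMI was found in macrophages. The contrast was 2.94 ± 0.18 in mesenchyme (adjusted p = 2.6e-16) and -2.61 ± 0.87 in endothelial cells (0.0153), the latter lost without mutant 1.

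Glia (47.0, 231, 145 and 138 CPM) and mural cells were also called higher for Mmp16 (2.17 ± 0.32 and 1.22 ± 0.34, adjusted p = 1.59e-06 and 0.00622), the latter not with stricter gates (0.42, adjusted p = 0.507) or without mutant 2 (0.73, adjusted p = 0.256).

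Mmp15, another membrane-type protease, shared the higher calls of glia and mural cells with Mmp16 and differed from it in endothelial cells, which were high, and in mesenchyme and the skeletal classes, which were low. Its levels were 49.9, 55.5, 77.7 and 48.1 CPM in glia and 56.8, 45.1, 58.0 and 44.9 CPM in endothelial cells, 2 classes whose libraries overlap. Mesenchyme held 1.95 ± 0.24 CPM (SD, n = 4) and chondrocytes 0.579 CPM. The contrast was 4.01 ± 0.38 in glia (adjusted p = 1.1e-10) and 3.89 ± 0.30 in endothelial cells (1.23e-13). Mmp17, which is anchored by a lipid, had its highest mean in glia (5.87, 41.6, 26.8 and 6.88 CPM), where 22 UMIs lie behind the 4 values. Mmp23 was highest in osteoblast lineage cells, at 23.4, 15.7, 13.4 and 20.3 CPM (2.92 ± 0.31, adjusted p = 1.48e-09), and no UMI of it was found in endothelial cells, a count that allows up to 1.02 CPM.

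**Figure D2:**
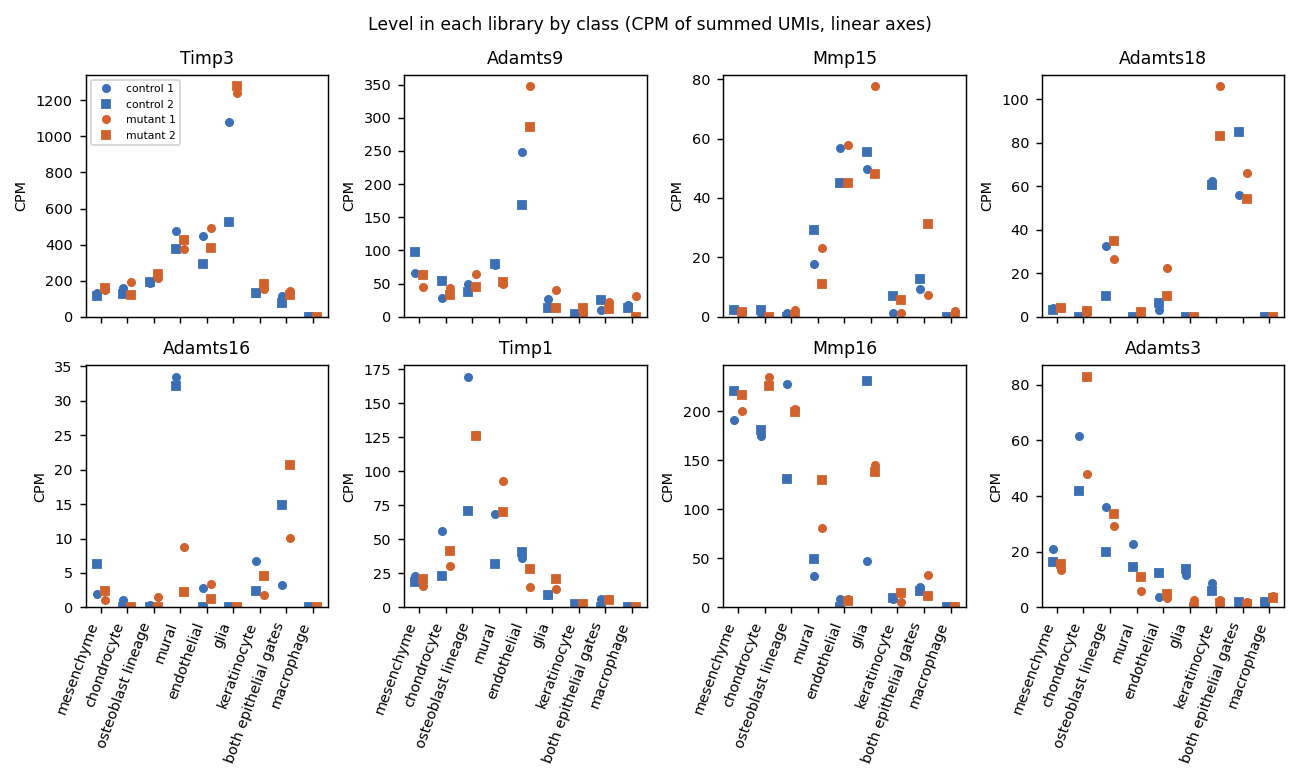
Level of 8 genes (CPM, linear axes starting at 0) in each library for the 9 tested classes. Blue marks control and orange mutant libraries, circles replicate 1 and squares replicate 2. All 4 libraries put Timp3 highest in glia, Adamts9 highest in endothelial cells and Adamts3 highest in chondrocytes.

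The Adamts genes that cleave aggrecan and versican also separated by class. Adamts9 was the endothelial one, at 248, 168, 348 and 285 CPM. Mesenchyme had 65.3, 98.1, 44.6 and 62.7 CPM, and no mesenchymal library reached an endothelial one. The contrast in endothelial cells was 3.29 ± 0.19 (adjusted p = 5.21e-17). Adamts1 was higher in mural cells (83.8 ± 13.3 CPM, SD, n = 4) and endothelial cells (68.8 ± 23.7), and these 2 classes overlap. Glia had a mean near the endothelial one, at 62.0 ± 20.5 CPM, and were not called (0.70 ± 0.27, edgeR adjusted p = 0.0592). Adamts1 lies 53.1 kb from Adamts5 on chromosome 16. Adamts5 instead had its highest mean in glia, at 32.3, 60.1, 69.7 and 117 CPM against 27.2 ± 3.0 in mesenchyme (3.15 ± 0.41 in glia, adjusted p = 1.02e-07). Adamts4 had no class above 14.8 CPM on average. Adamts15 had its highest means in mural cells (10.3 ± 7.0 CPM) and mesenchyme (9.25 ± 0.56), and Adamts8, which lies 20.1 kb from it on chromosome 9, was at 7.07 ± 6.11 CPM in mural cells and 2.53 CPM or lower in the other tested classes. The mural values rest on 19 and 14 UMIs. Adamts20, which acts on versican in skin, was highest in mesenchyme at 31.7 ± 3.2 CPM (2.92 ± 0.20, adjusted p = 3.48e-15).

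Among the procollagen propeptidases, Adamts2 and Adamts3 differed in which skeletal class had the higher mean, and both were called higher in both skeletal classes. Adamts2 measured 72.3, 66.8, 74.6 and 76.0 CPM in osteoblast lineage cells and 71.4, 64.5, 54.8 and 70.3 CPM in mesenchyme, with 1 UMI in macrophages. Adamts3, which also takes part in the activation of the lymphatic growth factor Vegfc, was highest in chondrocytes, at 61.5, 41.7, 47.8 and 82.8 CPM, and each of those lies above every osteoblast lineage value (36.1, 19.8, 29.1 and 33.6 CPM). Its chondrocyte contrast was 3.08 ± 0.23 (adjusted p = 5.7e-14) and its osteoblast lineage contrast 2.08 ± 0.21 (3.59e-10). Adamts2 in chondrocytes was at 46.0 ± 15.8 CPM (2.80 ± 0.31, edgeR adjusted p = 2.29e-09). Adamts14, their relative, stayed at means of 8.08 CPM or lower in every tested class.

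Adamts6 and Adamts10, linked to fibrillin microfibrils, were higher in chondrocytes. Adamts6 measured 81.6, 190, 164 and 127 CPM there (1.61 ± 0.22, adjusted p = 1.72e-07) against 83.1 ± 2.6 CPM in mesenchyme, so control 1 chondrocytes did not exceed mesenchyme. Adamts10 measured 49.8, 41.7, 36.3 and 39.97 CPM in chondrocytes (1.35 ± 0.21, adjusted p = 1.67e-06), where it overlapped osteoblast lineage cells (35.1 ± 6.5 CPM) and mesenchyme (34.9 ± 3.6). Adamts12, which cleaves cartilage oligomeric matrix protein, was at 131 ± 13 CPM in osteoblast lineage cells, 126 ± 10 in mesenchyme and 112 ± 28 in chondrocytes, which overlap one another. One UMI was found in macrophages. Adamts7, its closest relative, did not pass the filter of the class contrast and had its highest means in mesenchyme (10.99 ± 1.69 CPM) and mural cells (10.7 ± 6.0), which overlap.

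Adamts18 had its highest levels in the epithelial classes. It measured 62.3, 60.7, 106 and 83.1 CPM in keratinocytes and 55.9, 85.0, 65.9 and 54.1 CPM in the doubly marked epithelial cells. Osteoblast lineage cells were the next class, at 32.6, 9.40, 26.7 and 34.8 CPM, and 0 UMIs were found in macrophages, a count that allows up to 1.29 CPM. The keratinocyte contrast was 5.47 ± 0.29 (adjusted p = 5.42e-16). Adamts17, an enzyme tied to connective tissue growth, was also highest in keratinocytes, at 89.9, 100, 132 and 112 CPM against 54.1 ± 2.6 in mesenchyme (1.99 ± 0.13, adjusted p = 3.91e-15). Adamts17 was called higher in mesenchyme, osteoblast lineage cells and the doubly marked epithelial cells as well, and Adamts18 in osteoblast lineage and endothelial cells, the last not by limma. Adamts19, on chromosome 18, had its highest means in chondrocytes (54.7 ± 10.9 CPM) and mesenchyme (45.5 ± 5.6). Keratinocytes (17.0 ± 6.3 CPM) and the doubly marked epithelial cells (13.8 ± 6.9) were also called higher for it. The contrasts were 1.89 ± 0.37 and 1.41 ± 0.46 (edgeR adjusted p = 8.18e-05 and 0.0139), the latter not called by limma. Adamts16 was higher in mural cells and in the doubly marked epithelial cells, with 34 and 42 UMIs, and did not pass the filter without control 1, without control 2 or with stricter gates. Keratinocytes were also called higher for Adamts16 (2.26 ± 0.84, edgeR adjusted p = 0.0265), but not by limma. Their mean of 3.87 CPM was below the mean of 4.61 CPM over the other classes. The mural values of Adamts16, at 33.5, 32.2, 8.71 and 2.19 CPM, divide by genotype.

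The 3 abundant inhibitors had unlike distributions. Timp3 was highest in glia in every library, at 1077, 527, 1243 and 1279 CPM. Mural cells (474, 377, 374 and 423 CPM) and endothelial cells (447, 293, 493 and 379 CPM) followed and overlapped each other. Macrophages held 1 Timp3 UMI. The glial contrast was 3.34 ± 0.12 (adjusted p = 3.02e-23). Timp1 was highest in osteoblast lineage cells, at 170, 71.0, 126 and 126 CPM (4.13 ± 0.18, adjusted p = 1.68e-19), then in mural cells at 68.7, 32.2, 92.9 and 70.2 CPM, and had no UMI in macrophages. Its mesenchymal level of 19.6 ± 3.2 CPM was called higher by edgeR, but was below the mean of 34.6 CPM over the other classes and was not called by limma (adjusted p = 0.215). Timp2 had the flattest profile of the 3 and was the one expressed in macrophages, at 129 ± 15 CPM, against 172 ± 12 in mesenchyme and 212 ± 29 in chondrocytes. Timp4 had 76 UMIs.

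Summed by family, the balance of proteases and inhibitors differed between classes. In mesenchyme the Mmp, Adamts and Timp sums were 571 ± 43, 636 ± 49 and 330 ± 24 CPM (SD, n = 4). In glia they were 428 ± 122, 424 ± 61 and 1165 ± 363 CPM, and in macrophages 29.8 ± 22.2, 87.8 ± 12.1 and 129 ± 15 CPM. Mural cells had 401 ± 74, 470 ± 44 and 610 ± 70 CPM. In each library the Timp sum exceeded both protease sums in glia, in mural cells and in macrophages. These sums are levels of RNA and say nothing of protein or activity.

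Within the 9508 mesenchyme cells, several members differed with the detection of genes that mark regions, most of them transcription factors. Cells were divided by whether 1 of 14 regional genes was detected, and the values are a description with no test. The pairs named here were chosen after the values were seen. Mmp11 measured 92.4, 93.0, 109 and 165 CPM in Twist2-positive cells against 32.7, 31.8, 38.2 and 41.8 in Twist2-negative cells, a ratio of 3.17 between the means. It was at 0.278 times the level of the remaining cells in Foxc1-positive cells and at 0.282 times in Itgbl1-positive cells. Mmp17 followed Twist2 as well (ratio 2.62), while Mmp9 did the opposite, at 0.153 times in Twist2-positive and 3.37 times in Msx1-positive cells. Few counts lie behind these ratios, with 185 Mmp17 and 237 Mmp9 UMIs in all mesenchyme cells. Adamts17 was 2.28 times as high in Pax9-positive cells (80.2, 140, 97.1 and 112 CPM against 51.5, 48.9, 42.5 and 45.2). Adamts19 was at 0.23 times in Foxc1-positive cells, and Adamts9 and Adamts5 at 0.286 and 0.296 times in Pou3f4-positive cells. Adamts16 was 5.79 times as high in Agtr2-positive cells, from 5.38 to 21.9 CPM by library, of which control 2 gave the largest value. It had 178 UMIs in all mesenchyme cells.

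**Figure D3:**
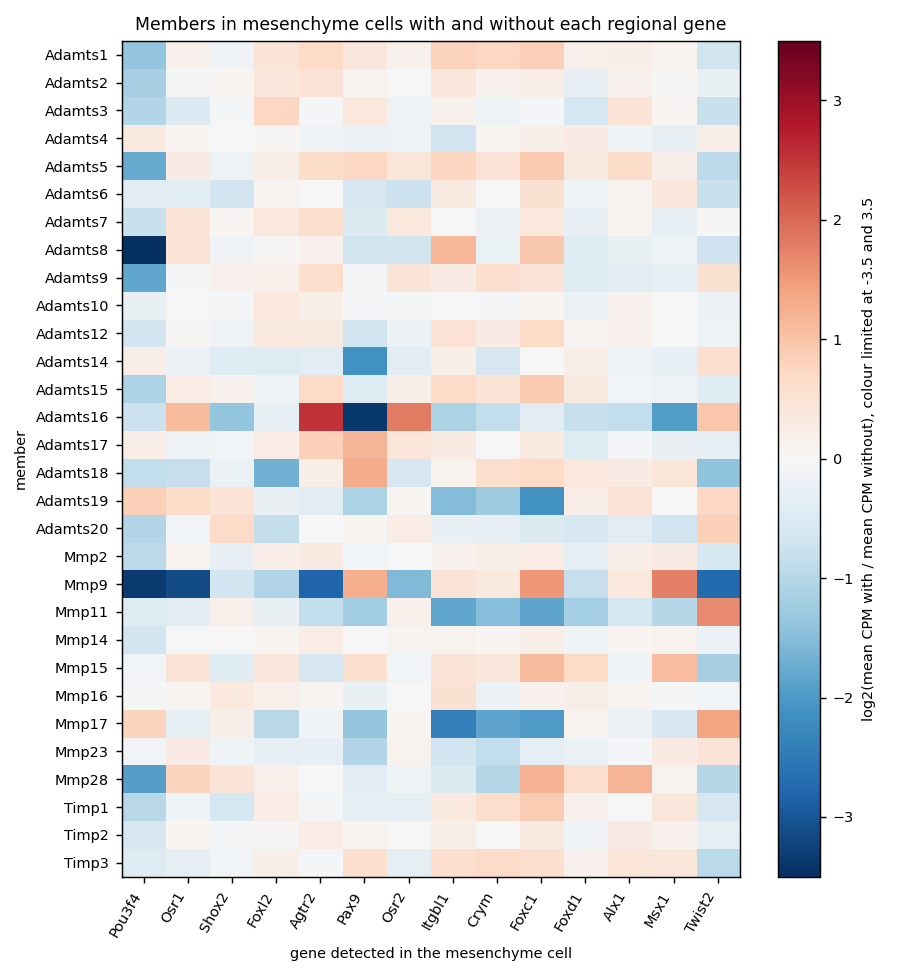
Ratio of the mean level with and without each regional gene (columns) for 30 genes (rows) in mesenchyme, on a log2 scale with red for higher in positive cells. Mmp11 and Mmp17 are red in the Twist2 column and blue in the Foxc1 and Itgbl1 columns, and Adamts16 is red in the Agtr2 column.

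Between genotypes, 0 of the tested genes passed an edgeR adjusted p of 0.05 in any class or over all cells. That rule called 0% of all genes in mesenchyme, chondrocytes, osteoblast lineage cells, glia and all cells, 0.0103% in the doubly marked epithelial cells, 0.046% in macrophages, 0.0553% in keratinocytes, 0.114% in endothelial cells and 0.289% in mural cells. An unadjusted p under 0.05 was reached in 19 gene and class pairs, 5 of them in mesenchyme among 32 tested members (7.75% of all genes there), 6 in keratinocytes among 16 (5.81%), 4 in mural cells among 15 (10%), 2 in endothelial cells among 12 (6.81%) and 2 over all cells among 34 (4.88%). Chondrocytes (4.84%), glia (4.08%), macrophages (4.97%), the doubly marked epithelial cells (7.51%) and osteoblast lineage cells (3.7%) had 0. In mesenchyme, 7 of the 32 had both mutants above both controls (26% of all genes did) and 6 had both below (14.6%). The median log2 change of the 32 was -0.10, beside 0.0012 for all 15928 genes. Calls appeared when 1 library was left out: Adamts9 and Adamts16 in mesenchyme and Timp3 in glia without control 1, Mmp16 and Adamts6 in mural cells without control 2, and Mmp11 in mural cells without mutant 2. With library number as a block, Adamts9 was called in mesenchyme (-0.64, adjusted p = 0.0219). Without a filter on low counts, Mmp11, Adamts9 and Adamts16 were called in mesenchyme, Mmp16, Adamts16 and Adamts5 in mural cells and Mmp9 in macrophages. Such calls were not confined to the members. With the block and without the filter, calls over all genes rose in these classes too, and they varied widely when a library was left out. Their counts are given in the last section. A fit without 1 library leaves a group with a single library.

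In mesenchyme, Mmp11 measured 60.9 and 65.1 CPM in controls against 80.7 and 102 in mutants, a log2 change of 0.50 ± 0.12 (SE, n = 2 against 2 libraries, edgeR unadjusted p = 0.00457, adjusted p = 0.454). Both mutants lay above both controls. The same held in Twist2-positive cells (92.4 and 93.0 against 109 and 165 CPM) and in Twist2-negative cells (32.7 and 31.8 against 38.2 and 41.8). Among the cells in which 1 of the 14 regional genes was detected, groups that share cells, it held for 6 of 14 genes. Among the cells in which the gene was not detected, which also share cells, it held for all 14. Twist2 itself measured 206 and 268 CPM in control against 280 and 245 in mutant mesenchyme, and Foxc1, in whose positive cells Mmp11 is low, 30.7 and 35.6 against 18.1 and 24.0, and the part of regional makeup in the Mmp11 values was not tested. Timp3 was also above in both mutants, at 131 and 116 against 146 and 158 CPM (0.26 ± 0.10, adjusted p = 0.62).

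Adamts9, Adamts3 and Adamts8 went the other way in mesenchyme. Adamts9 measured 65.3 and 98.1 CPM in controls against 44.6 and 62.7 in mutants (-0.64 ± 0.22, adjusted p = 0.577), with a gap of only 65.3 to 62.7 between the groups. Leaving out each library in turn gave log2 changes from -0.92 to -0.32. Adamts3 measured 21.1 and 16.2 against 13.4 and 15.6 CPM (-0.41 ± 0.16, adjusted p = 0.62). Adamts8, at 2.29 and 1.9 against 1.25 and 1.00 CPM (-0.93 ± 0.33, adjusted p = 0.591), rests on 109 UMIs.

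**Figure D4:**
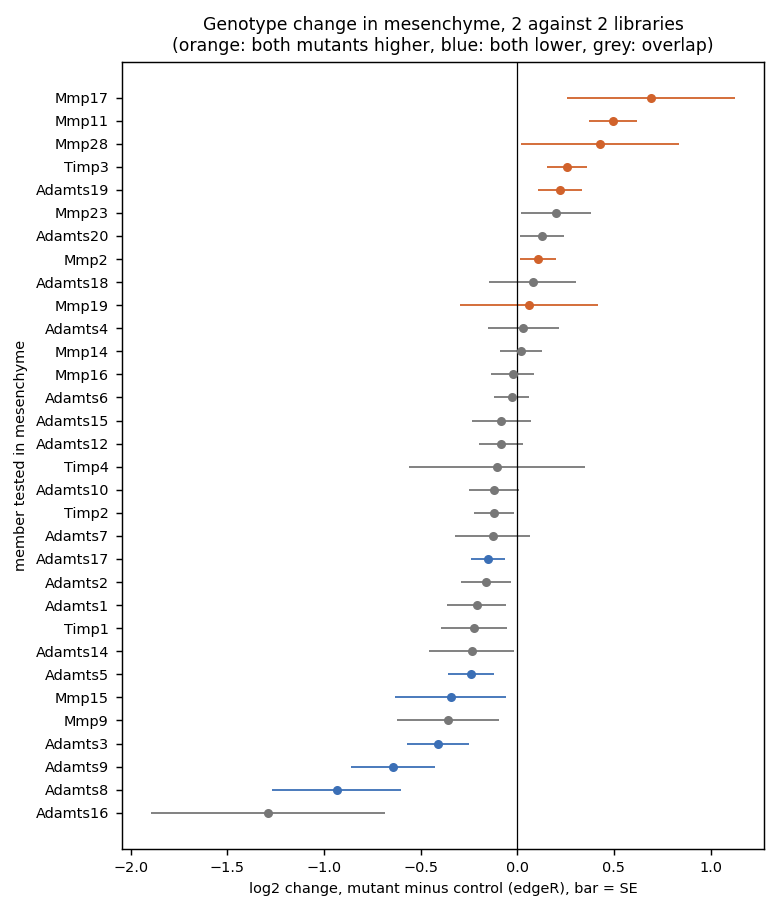
Change between genotypes of the 32 members tested in mesenchyme, as log2 of mutant over control with standard errors (edgeR, 2 against 2 libraries). Mmp17 and Mmp11 lie farthest right, Adamts16 and Adamts8 farthest left, and the abundant Mmp14, Mmp16 and Adamts6 lie near 0.

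Of the 7 members with the most UMIs in mesenchyme, Timp3 is given above and the other 6, named after their values were seen, had log2 changes between -0.12 and 0.11. Mmp14 measured 161 and 155 against 150 and 179 CPM (0.02 ± 0.11), Mmp16 191 and 221 against 200 and 216 (-0.02 ± 0.11), and Adamts6 84.1 and 81.4 against 86.3 and 80.5 (-0.03 ± 0.09). Controls and mutants overlapped for each of these. Timp2 was at 186 and 167 against 158 and 175 CPM (-0.12 ± 0.10), and Adamts12 at 119 and 136 against 116 and 132 (-0.08 ± 0.11), again with overlap. Mmp2 measured 100 and 92.4 against 104 and 110 CPM (0.11 ± 0.09), with both mutants above both controls.

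Of 15 genes tested in mural cells, 3 had both mutants above both controls (20.5% of all genes) and 2 had both below (19.1%). Adamts16 in mural cells measured 33.5 and 32.2 CPM in controls against 8.71 and 2.19 in mutants, from 19, 11, 3 and 1 UMIs, a log2 change of -2.65 ± 0.67 (adjusted p = 0.177). Mmp16 measured 31.7 and 49.7 against 81.3 and 129 CPM (1.43 ± 0.35, adjusted p = 0.163), and Mmp11 45.8 and 32.2 against 102 and 61.4 (0.98 ± 0.36, adjusted p = 0.387). Adamts6 overlapped between genotypes, at 10.6 and 38.0 against 37.7 and 63.6 CPM. Of the markers of the gate only Vtn, a marker of pericytes, was called. It fell from 370 and 605 to 40.6 and 30.7 CPM (-3.78, edgeR adjusted p = 0.00454). The smooth muscle gene Acta2 measured 1429 and 497 against 2182 and 2219 CPM (adjusted p = 0.278). Myh11, another, measured 59.9 and 8.77 against 145 and 143 CPM (adjusted p = 0.177). Other gate markers went different ways. Rgs5 lay lower in both mutants (1210 and 1354 against 1033 and 673 CPM). Abcc9 lay slightly higher (359 and 328 against 366 and 379 CPM), and Kcnj8 overlapped (344 and 219 against 171 and 283 CPM). The 17 mesenchyme markers, of which Tcf21 was at 0, summed to 1631 and 1322 CPM in control and 1721 and 2044 CPM in mutant mural cells. Their part in the mural values was not tested. A different mix of mural cells and a change within each cell cannot be told apart in such sums.

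Of 12 genes tested in endothelial cells, 2 had both mutants above (20.9%) and 2 had both below (16.2%). Adamts9 measured 248 and 168 CPM in controls against 348 and 285 in mutants (0.54 ± 0.24, adjusted p = 0.72), with both mutants above both controls, the opposite order to that in mesenchyme. The endothelial cells of mutant 2 were shallower, with a median of 5633 UMIs against 12515 to 17015 in the other libraries, and without mutant 2 the log2 change was 0.65. The difference between the 2 classes in their genotype change was 1.13 ± 0.44 on the log2 scale (unadjusted p = 0.0156, edgeR adjusted p = 0.81). This test of a difference was run after seeing the data, for 36 pairs of classes and 23 members, and called 0 members. Timp1 in endothelial cells went from 36.6 and 41.0 to 15.3 and 27.9 CPM (-0.81 ± 0.36, adjusted p = 0.725).

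Keratinocytes had 6 genes with an unadjusted p under 0.05, in both directions. Of the 16 tested, 5 had both mutants above both controls (19.9% of all genes) and 4 had both below (17%). Adamts18 measured 62.3 and 60.7 CPM in controls against 106 and 83.1 in mutants (0.61 ± 0.18, adjusted p = 0.802), and Adamts17 89.9 and 100 against 132 and 112 (0.36 ± 0.16). Timp3 was at 129 and 130 against 152 and 181 CPM, and Adamts20 at 3.55 and 1.17 against 7.31 and 8.08. Adamts19 was at 19.7 and 24.5 against 10.5 and 13.3 CPM, and Adamts3 at 8.67 and 5.84 against 2.74 and 1.73. In each of the 6, mutants and controls did not overlap. Of 13 dissociation stress genes, Hspa1a and Hspa1b were called higher in mutant keratinocytes, and their part in these values was not tested. Over all cells, 4 of 34 had both mutants above (24.9%) and 7 had both below (13%). Mmp11 measured 40.4 and 49.0 against 57.5 and 69.99 CPM and Mmp9 6.82 and 4.15 against 3.26 and 3.57, where 100 of the 241 Mmp9 UMIs of control 1 came from 2 osteoclast-marked cells.

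**Figure D5:**
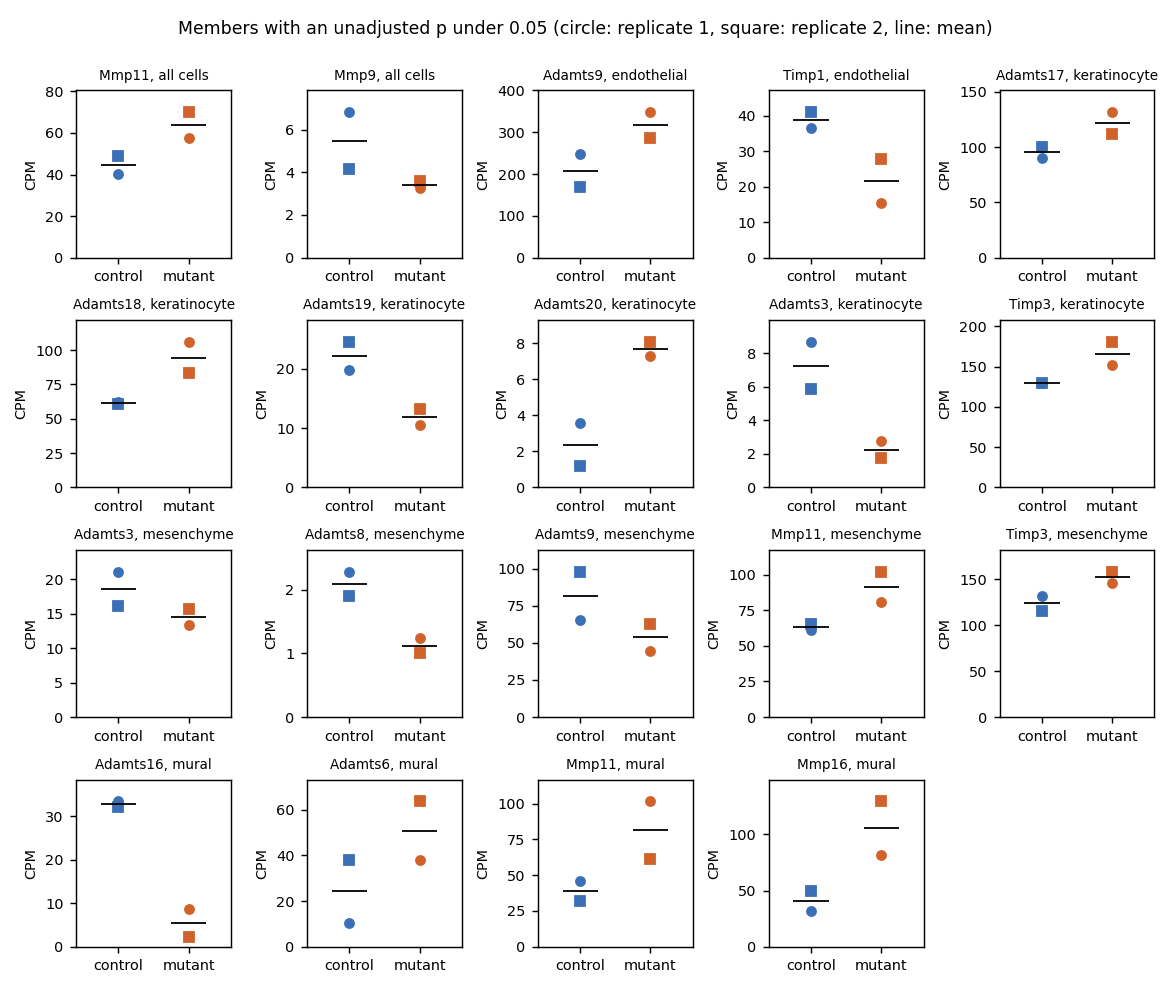
Level in each library (CPM, axes from 0) of the 19 gene and class pairs with an unadjusted p under 0.05, with circles for replicate 1, squares for replicate 2 and a line at each group's mean. Controls and mutants do not overlap except for Adamts6 in mural cells.

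Glia come from the Sox10-expressing lineage and had no pair under that threshold, and their genes are named here after the values were seen. Timp3 measured 1077 and 527 CPM in controls against 1243 and 1279 in mutants (0.58 ± 0.28, adjusted p = 0.985), and Adamts5 32.3 and 60.1 against 69.7 and 117 (0.92 ± 0.45, adjusted p = 0.985), with 20 to 36 glia per library behind each value. The 13 dissociation stress genes summed to 1637 and 1077 CPM in control glia against 2526 and 2957 CPM in mutant glia, with 5 of 12 tested at an unadjusted p under 0.05. Glia of control 2, the lowest for Timp3, also had the lowest sum of the 11 glia markers (5458 CPM against 9510 to 17839) and the highest sum of the 13 olfactory neuronal markers (873 CPM against 170 to 383), with Neurod1, Neurog1, Dcx, Stmn4 and Omp at 0. The part of these in the Timp3 and Adamts5 values was not tested. Without control 1, Timp3 in glia was called, as given above. Mmp15 overlapped between genotypes.

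Genes that work with these proteases were read from lists of related proteins. In mesenchyme 0 of 5 tested ADAMTS-like genes, 0 of 16 regulators and activators, 0 of 13 other metzincin proteases and 0 of 17 matrix substrates were called between genotypes, and none of these 4 lists had a call in any other class or over all cells. By class, 15 of 17 substrates were higher in mesenchyme (32% of all genes) and 15 of 17 in chondrocytes (21.7%). Macrophages were lower for 13 of 17 (30.7%). Col2a1 and Fbn2 on the substrate list are gate markers of chondrocytes and of mesenchyme. Their higher level in those classes follows from the gate. Of the 17 substrates in mesenchyme, 6 had an unadjusted p under 0.05 (7.75% of all genes) and the median log2 change was -0.175, and in mural cells 5 of 14 did (10%). The genes named next were chosen after their values were seen. The 6 were the basement membrane genes Col4a1, Col4a2, Nid1 and Nid2 and the collagen gene Col1a1, with log2 changes from -0.67 to -0.34, and the elastin gene Eln at 0.38. Both mutants lay below both controls for each of the 5 and above them for Eln. The membrane inhibitor Reck, which restrains several Mmp proteins, measured 106, 116, 123 and 131 CPM in glia, where Timp3 is highest (2.72 on the log2 scale in the class contrast, adjusted p = 3.35e-12).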

How the data were processed

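Whole noses of embryonic day 14.5 mice were profiled with 10x 3′ chemistry in 2 control and 2 mutant libraries. The deposited values are UMI counts per gene and cell, made by the authors with Cell Ranger 8.0.1 per the file headers. The submitters' processing notes name Cell Ranger 4, Seurat 4.3.0 and mm10 instead. More than 1 sequencing provider is named with no library assignment, so batch and genotype cannot be told apart. A further sample is not analysed here, and 1 further Mmp gene is not reported here.

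Retained cells had 500 or more genes and no more than 10% of UMIs from mitochondrial genes (Python 3.11.15, scanpy 1.11.5) and were gated by counts of detected markers. Gate thresholds were set after marker counts were seen, and the genes and lists were chosen with earlier results of these data known. Scrublet made 0 to 3 automatic calls per library, which means it did not work as a caller, so doublets were left in and the highest scores were removed in an alternative. For each class, the UMI counts of a library's cells were added up, scaled by TMM and compared by the quasi-likelihood test of edgeR 4.0.16, with Benjamini-Hochberg adjustment over all genes and a threshold of 0.05. Fits were also tested on simulated data. Alternatives were DESeq2 1.42.0, other scaling, no filter, stricter cells and gates, a replicate block and each library left out. The interaction test and limma 3.58.1 on log2(CPM + 1) were added after seeing the data. Columns of other samples in the files numbered 0.

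Genes with at least 100 UMIs are named with class levels, and between genotypes those with an adjusted p under 0.05, or an unadjusted p under 0.05 and at least 20 UMIs. Exceptions are stated. Limits at 0 UMIs use 3 counts and cover counting error only.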

Additional observations from a re-analysis of the deposited data

Results flagged for a closer look

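Adamts9 had genotype values of opposite sign in 2 classes, neither called (edgeR adjusted p = 0.72 and 0.577): every mutant library lay above every control in endothelial cells (log2 change 0.535) and below every control in mesenchyme (-0.644). The difference of 1.13 ± 0.44 (SE) had an unadjusted p of 0.0156 and an edgeR adjusted p of 0.81 over all genes, so it did not pass the correction.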

How the results depend on the processing

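Of 621 values over all settings, 57 are the reported ones, 465 kept their direction and side of the threshold, and no genotype change named here changed sign. In the class contrast, Mmp14 in keratinocytes turned from -0.575 to 0.324 without mutant 2. The cause of the shifts was not tested. Libraries with the same number share only that number (correlation of their deviations -0.086 to 0.132 by class). With this number as a replicate block, 1 of the proteases and inhibitors was called in mesenchyme (Adamts9, -0.636), and the calls over all genes were 2 in chondrocytes, 64 in endothelial cells, 10 in glia, 12 in keratinocytes, 10 in macrophages, 81 in mesenchyme, 21 in doubly marked epithelial cells, 42 in mural cells and 1 in osteoblast lineage cells. Without a filter on low counts they were 45, 107, 27, 153, 59, 578, 255, 212 and 78 in that order and 10 over all cells, with 1 member called in macrophages, 3 in mesenchyme and 3 in mural cells. DESeq2 called 4 genes in endothelial cells, 10 in keratinocytes, 8 in macrophages, 57 in mesenchyme, 6 in doubly marked epithelial cells, 30 in mural cells and 30 over all cells. Stricter cell limits gave 1 gene in mesenchyme and left glia under 20 cells in a library, with no value. Stricter gates gave 5 genes in doubly marked epithelial and 65 in mural cells, and removal of the highest doublet scores 69 in mural cells.

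Leaving out each library gave 3 to 140 genes in chondrocytes, 43 to 176 in endothelial cells, 0 to 127 in glia, 0 to 143 in keratinocytes, 2 to 26 in macrophages, 4 to 895 in mesenchyme, 2 to 568 in doubly marked epithelial cells, 0 to 169 in mural cells, 6 to 122 in osteoblast lineage cells and 0 to 410 over all cells, the most without control 1 except in mural cells, where it was without mutant 2. A lone library is then assumed to vary like the other group. Members called ranged from 0 to 1 in glia, 0 to 2 in mesenchyme and 0 to 2 in mural cells. The log2 change ranged from -0.915 to -0.322 for Adamts9 in mesenchyme, and in mural cells from 0.422 to 2.238 for Adamts6, 0.576 to 1.321 for Mmp11 and 1.036 to 1.721 for Mmp16.

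In the class contrast, members lower ranged from 0 to 1 in chondrocytes, glia, mesenchyme and osteoblast lineage cells, 3 to 7 in endothelial cells and 6 to 10 in doubly marked epithelial cells, and members higher from 1 to 2 in macrophages and 3 to 6 in doubly marked epithelial cells. With limma, 3 were lower in chondrocytes, 6 in glia and 1 in mural cells. Macrophages had 1 higher with limma, stricter gates or high doublet scores removed. Mesenchyme had 29 higher without a filter, where all 44 members were tested. Mural cells had 9 higher with stricter gates, and doubly marked epithelial cells 6 lower with high doublet scores removed.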
